A study of Mus musculus with 15 samples.

Results

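The transcripts of 9 enzymes and carriers that break down fatty acids were followed in whole blood: Cpt1a, Slc25a20, Cpt2, Acadvl, Acadm, Hadha, Hadhb and Acaa2 of the mitochondrion, and Ehhadh of the peroxisome. They were taken by gene symbol from the deposited count table, and all 9 were found among its 55536 genes. The blood came from 15 male C57Bl/6 mice aged 10 months, measured by total RNA sequencing with 1 library per animal. In the TBT group (8 animals) the mothers had taken tributyltin in their drinking water, given as 3.07 µM, or 0.5 mg/kg body weight daily, up to weaning, and in the vehicle group (7 animals) exposure is labelled as vehicle. All animals are of 1 strain and sex, the mother's exposure is the only agent named, and vehicle 3 carries a liver tumor label. Tributyltin is an organotin and an agonist of RXR and PPAR gamma. The mother of each animal is not given in the sources used here, so p-values measure the spread between animals, some of which may be littermates.

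Mitochondrial beta-oxidation begins with the carnitine shuttle, in which CPT1 loads a long-chain acyl group onto carnitine, the carrier SLC25A20 moves it across the inner membrane and CPT2 returns it to coenzyme A. Acyl-CoA dehydrogenases of different chain length preference, the trifunctional protein and a thiolase then shorten the chain turn by turn. Peroxisomes run a parallel pathway for very long and branched chains, in which EHHADH is a bifunctional enzyme. In liver, genes of both pathways are classical targets of PPAR alpha, the partner of RXR. In blood, leukocytes and platelets have mitochondria, whereas mature red cells have lost them.

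The libraries held 6.03 M to 11.99 M gene counts, of which 504 to 2666 fell in the 9 genes. TBT 2 and TBT 8 stood apart, with TMM scaling factors of 0.404 and 0.528 against 0.736 to 1.584 in the other libraries. CPM are counts per 1 M of the TMM-scaled library size unless total counts are named. On this scale the summed platelet markers of TBT 2 and TBT 8, at 15306 and 15370 CPM, were above the 7370 CPM that was the highest among vehicle animals, and on CPM of total counts they were 6169 and 8092, against at most 7333 in vehicle. The median platelet sum was lower in TBT than in vehicle on either scale. Haemoglobin transcripts made 28.7% to 50.8% of counts in every library, and markers of platelets, neutrophils, monocytes, B cells, T cells and NK cells were read besides, as whole blood would hold. On the TMM scale the log2 fold changes of monocyte markers were positive in 10 of 10, and those of B cell markers negative in 9 of 10. The median summed monocyte level went the other way on that scale, at 1185 CPM in TBT and 1577 CPM in vehicle. TBT 8 was the highest of all animals, at 3731 CPM. On total counts the monocyte medians were 1533 CPM in TBT and 1519 CPM in vehicle. The median summed B cell level was 1130 CPM in TBT and 1314 CPM in vehicle on the TMM scale. On total counts the B cell medians were 1462 CPM in TBT and 1392 CPM in vehicle. The part of these cell types in the values of the 9 genes was not tested. In bulk blood, fewer cells of a type and less RNA per cell cannot be told apart.

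The peroxisomal member had a larger difference between TBT and vehicle than any of the 8 mitochondrial members. Ehhadh had a log2 fold change of 0.80 (TBT over vehicle, SE 0.303), and the mitochondrial members lay between -0.13 and 0.10. All 9 passed the filter on low counts. No member passed the test over all 13364 tested genes (edgeR quasi-likelihood test with Benjamini-Hochberg adjustment at 0.05), where 0% of all tested genes were called as well. DESeq2 and limma each called 19 of all genes and 0 members. The smallest adjusted p among the members was 0.725, for Ehhadh. At an unadjusted p under 0.05 there was 1 member of 9, on the higher side, against 6.33% of all tested genes in either direction, 4.57% on the higher side and 1.76% on the lower. The median log2 fold change was 0.02 over the mitochondrial members and 0.05 over all tested genes, of which 59.4% were positive.

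**Figure D1:**
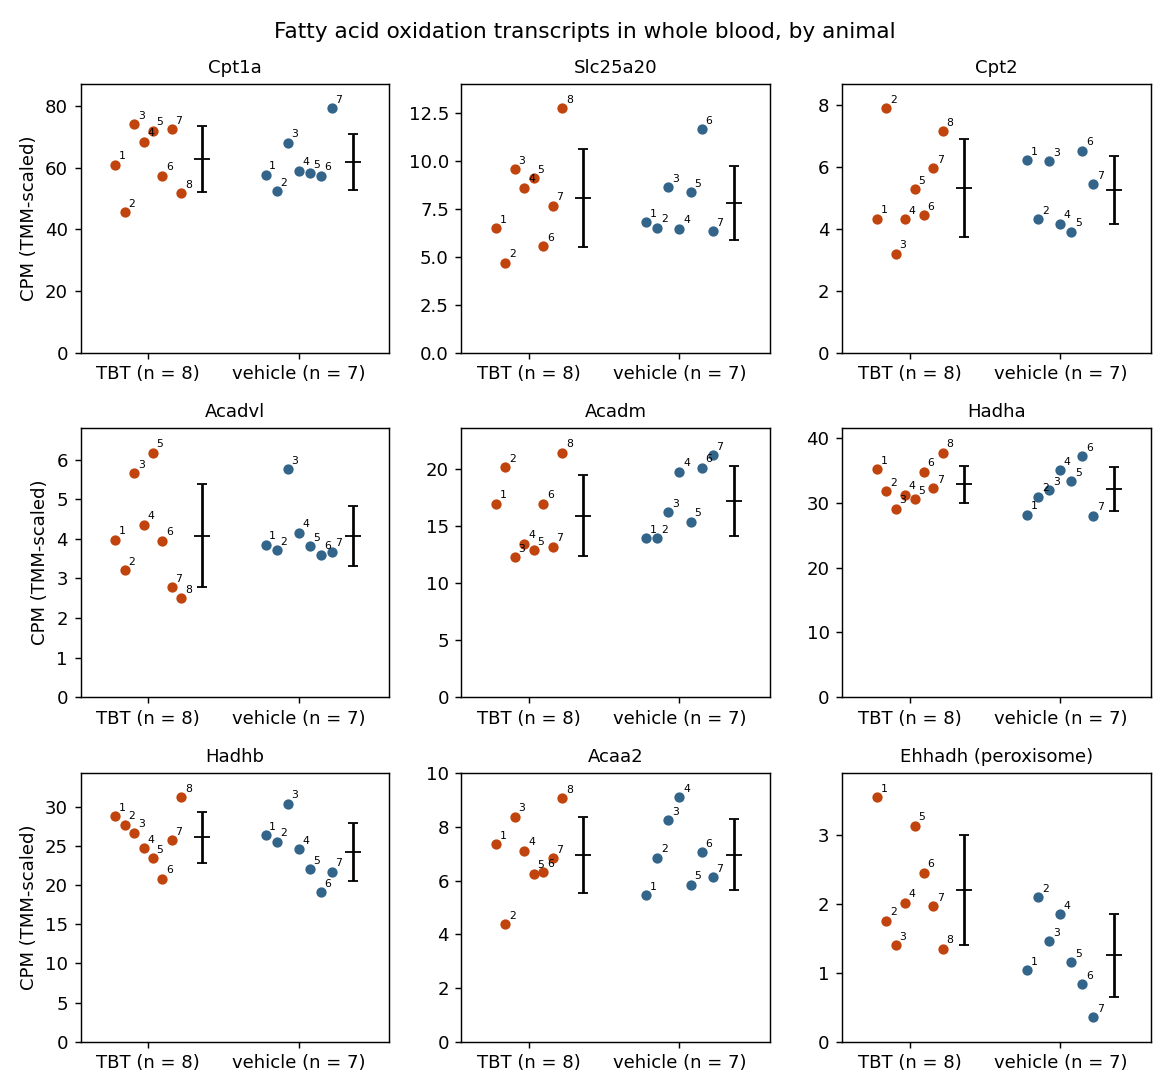
CPM of each of the 9 transcripts (TMM-scaled, axes from 0) in each animal, TBT on the left and vehicle on the right, with the animal number beside each point and the mean and SD as a bar. The groups overlap in all 9 panels, and in Ehhadh the 8 TBT animals all lie above the vehicle median of 1.15 CPM.

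CPT1, the malonyl-CoA-sensitive gate of the pathway, was represented by Cpt1a. Cpt1a ran from 45.6 to 74.2 CPM in TBT (median 64.8) and from 52.4 to 79.4 CPM in vehicle (median 58.2). TBT 2 and TBT 8 were the lowest of all animals, at 45.6 and 51.7 CPM, and vehicle 7 was the highest. The groups overlapped, with means of 62.9 ± 10.6 CPM in the 8 TBT animals and 61.7 ± 9.06 CPM in the 7 vehicle animals (± SD) and a log2 fold change of 0.03 (95% interval -0.22 to 0.28). The muscle and brain forms of CPT1, Cpt1b and Cpt1c, stayed under the filter on low counts, with at most 7 and 8 counts in any TBT library and 7 and 6 in any vehicle library. In GRCm38, Cpt1a (ENSMUSG00000024900) lies on the plus strand at chr19:3322334-3385733. The promoter of this gate enzyme is shown as that of the most abundant member, from 250 bases before to 50 after the RefSeq start (GRCm38.p6, chr19:3323051-3323350, plus strand), with capitals marking matches on either strand to AGGTCA, the core element of nuclear receptors, to GGGCGG (the GC box), to CCGGAAG (ETS) and to CCAAT.
Cpt1a: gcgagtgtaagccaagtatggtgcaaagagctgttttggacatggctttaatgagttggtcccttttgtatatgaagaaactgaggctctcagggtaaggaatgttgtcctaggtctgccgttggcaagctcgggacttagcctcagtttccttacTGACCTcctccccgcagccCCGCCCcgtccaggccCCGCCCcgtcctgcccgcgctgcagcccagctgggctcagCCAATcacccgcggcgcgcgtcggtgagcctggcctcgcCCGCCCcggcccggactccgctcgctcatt

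The inner membrane carrier gene Slc25a20 ran from 4.67 to 12.7 CPM in TBT (median 8.12) and from 6.31 to 11.6 CPM in vehicle (median 6.78). Its highest values were in TBT 8 and vehicle 6, and its lowest in TBT 2. Cpt2, whose enzyme completes the shuttle on the matrix side, ran from 3.18 to 7.88 CPM in TBT (median 4.85) and from 3.90 to 6.51 CPM in vehicle (median 5.43). Cpt2 had the opposite placing of TBT 2, which with TBT 8 held its highest levels. The log2 fold changes were 0.04 for Slc25a20 (95% interval -0.36 to 0.45) and -0.02 for Cpt2 (95% interval -0.42 to 0.38). The estimate for Ehhadh lay outside both intervals, but both overlapped the Ehhadh interval (0.17 to 1.44). A difference of these genes from Ehhadh was not tested. In GRCm38, Slc25a20 (ENSMUSG00000032602) lies at chr9:108662088-108684641 on the plus strand and Cpt2 (ENSMUSG00000028607) at chr4:107903981-107923610 on the minus strand.

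The dehydrogenases of the first oxidation step did not pass either. Acadm, for medium chains, ran from 12.3 to 21.4 CPM in TBT (median 15.2) and from 13.9 to 21.2 CPM in vehicle (median 16.2). The high animals were TBT 8, TBT 2, vehicle 7, vehicle 6 and vehicle 4, and 4 TBT animals lay below the lowest vehicle animal. Its log2 fold change was -0.13 (SE 0.143, edgeR adjusted p = 0.964), the lowest of the 9. Acadvl, for very long chains, ran from 2.51 to 6.18 CPM in TBT (median 3.97) and from 3.60 to 5.76 CPM in vehicle (median 3.81). TBT 8, TBT 7 and TBT 2 were its 3 lowest animals, and its log2 fold change was 0.01 (95% interval -0.40 to 0.42). Acadvl (ENSMUSG00000018574, chr11:70010183-70015411, minus strand) overlaps the end of Dvl2 on the other strand, and since the counting may have ignored strand, reads of that stretch may be shared between them. Acadm (ENSMUSG00000062908) lies at chr3:153922357-153944632 on the minus strand.

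Hadha and Hadhb encode the alpha and beta subunits of the mitochondrial trifunctional protein, which carries out the hydratase, dehydrogenase and thiolase steps for long chains. Hadha ran from 29.1 to 37.8 CPM in TBT (median 32.1) and from 28.0 to 37.3 CPM in vehicle (median 32.0). The groups covered almost the same range, with a log2 fold change of 0.03 (SE 0.0864, 95% interval -0.15 to 0.21), the narrowest interval of the 9. Hadhb ran from 20.8 to 31.2 CPM in TBT (median 26.2) and from 19.1 to 30.4 CPM in vehicle (median 24.6). Of 8 TBT animals, 6 lay above the vehicle median of Hadhb, and the log2 fold change was 0.10 (SE 0.108, edgeR adjusted p = 0.962). Per kb of exon the ratio of Hadha to Hadhb was 0.961 ± 0.134 in 8 TBT animals, against 1.03 ± 0.235 in 7 vehicle animals (± SD). The highest ratios were 1.27 in TBT 6 and 1.47 in vehicle 6, and the groups overlapped.

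The genes of both subunits stand head to head on mouse chromosome 5, Hadha (ENSMUSG00000025745) on the minus strand at chr5:30118304-30155162 and Hadhb (ENSMUSG00000059447) on the plus strand at chr5:30155248-30184593, with 86 bases between their annotated starts. Their RefSeq promoter windows (GRCm38.p6, chr5:30154931-30155230 on the minus strand for Hadha and chr5:30155003-30155302 on the plus strand for Hadhb) are printed because they are 1 stretch read from both sides, with 228 shared bases. Capitals mark the same matches as in Cpt1a, which here are GC boxes only, and the GC box of the Hadha window is the same 6 bases as the first one of the Hadhb window.
Hadha: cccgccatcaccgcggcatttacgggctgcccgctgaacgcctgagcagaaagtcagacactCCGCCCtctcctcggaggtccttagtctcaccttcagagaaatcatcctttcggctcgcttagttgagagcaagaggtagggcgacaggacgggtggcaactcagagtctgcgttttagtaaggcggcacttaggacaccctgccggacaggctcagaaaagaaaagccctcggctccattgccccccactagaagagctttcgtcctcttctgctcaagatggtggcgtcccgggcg
Hadhb: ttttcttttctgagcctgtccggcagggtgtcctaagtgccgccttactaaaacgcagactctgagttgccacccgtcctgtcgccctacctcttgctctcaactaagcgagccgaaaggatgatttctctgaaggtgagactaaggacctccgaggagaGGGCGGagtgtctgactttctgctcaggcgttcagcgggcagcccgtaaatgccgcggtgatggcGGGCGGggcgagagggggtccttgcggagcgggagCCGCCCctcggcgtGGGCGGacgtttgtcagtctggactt

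The levels of both subunits showed no detectable correlation between animals on the TMM scale. Pearson's r of Hadha and Hadhb on log2 CPM was -0.03 over the 15 animals (permutation p = 0.921, adjusted 0.923 over 36 pairs), and Spearman's rho was 0.06 (permutation p = 0.831, adjusted 0.959). Without the 2 animals farthest from the median of Hadha r was -0.01, and without TBT 2, TBT 8 and vehicle 6 it was -0.01 as well (n = 12). Within the groups r was 0.32 in TBT and -0.38 in vehicle. The value rests on the scaling: on CPM of total counts r was 0.895, and 33 of the 36 pairs passed against 0 on the TMM scale. Ranked by r with Hadha over 13363 other genes, Hadhb stood at place 6830. Hadha also varied little between animals, with an SD of log2 CPM within groups of 0.14 at 109 to 510 counts per library. Counting error therefore limits what r can show for this pair.

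**Figure D2:**
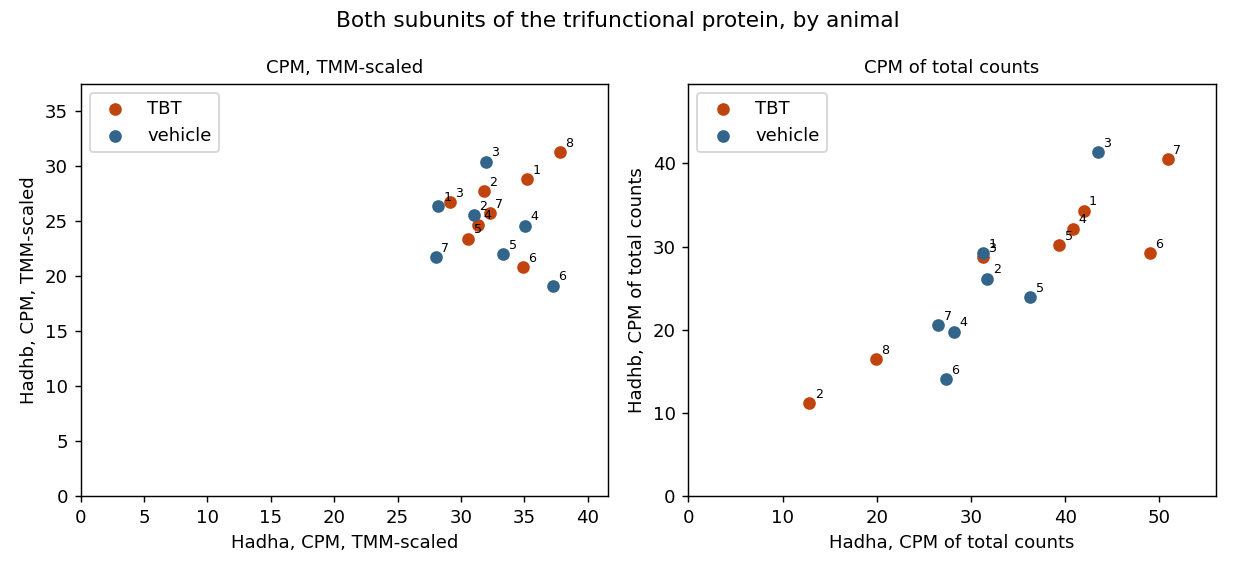
Hadhb against Hadha in each animal, as TMM-scaled CPM on the left and as CPM of total counts on the right, with TBT and vehicle animals in separate colours and animal numbers beside the points. On the left the points form no line (r = -0.03 on log2 CPM), while on the right they run along a line from TBT 2 to TBT 7 (r = 0.895).

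Acaa2, the thiolase that closes the mitochondrial cycle for medium chains, ran from 4.38 to 9.07 CPM in TBT (median 6.97) and from 5.46 to 9.12 CPM in vehicle (median 6.85). TBT 8 and vehicle 4 were the highest animals and TBT 2 the lowest. Its log2 fold change was 0.01 (95% interval -0.31 to 0.33). Acaa2 (ENSMUSG00000036880) lies on mouse chromosome 18 at 74779197 to 74806208 on the plus strand.

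Summed per kb of exon, the 8 mitochondrial members made 30.01 ± 2.04 CPM per kb in 8 TBT animals, against 29.75 ± 2.51 CPM per kb in 7 vehicle animals (± SD). These sums covered 27.3 to 33.8 in TBT and 26.9 to 33.3 in vehicle, nearly the same range. The medians had the other order, at 30.1 in TBT and 30.9 in vehicle, and 6 of 8 TBT animals lay below the vehicle median.

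Ehhadh, the peroxisomal bifunctional enzyme that combines hydratase and dehydrogenase activity in 1 chain, was the lowest of the 9 in counts. Its counts were 41, 6, 18, 30, 38, 31, 31 and 7 in TBT 1 to TBT 8, against 11, 18, 21, 16, 13, 6 and 2 in vehicle 1 to vehicle 7. Its level ran from 1.35 to 3.55 CPM in TBT (median 1.99) and from 0.350 to 2.09 CPM in vehicle (median 1.15). All 8 TBT animals lay above the vehicle median, and TBT 1, TBT 5 and TBT 6 lay above every vehicle animal. The means were 2.20 ± 0.793 CPM in 8 TBT animals, against 1.25 ± 0.598 CPM in 7 vehicle animals (± SD), and the fitted fold was 1.74 (95% interval 1.12 to 2.71). In edgeR the unadjusted p was 0.0164, place 298 of all tested genes, and the adjusted p was 0.725, so the difference did not pass. None of the 8 mitochondrial intervals reached the estimate of Ehhadh, although the highest of them ended at 0.45, above the lower end of the Ehhadh interval at 0.17 (log2), and the difference between the pathways was not tested. At 2 to 41 counts per library, counting error limits the precision of each Ehhadh value.

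**Figure D3:**
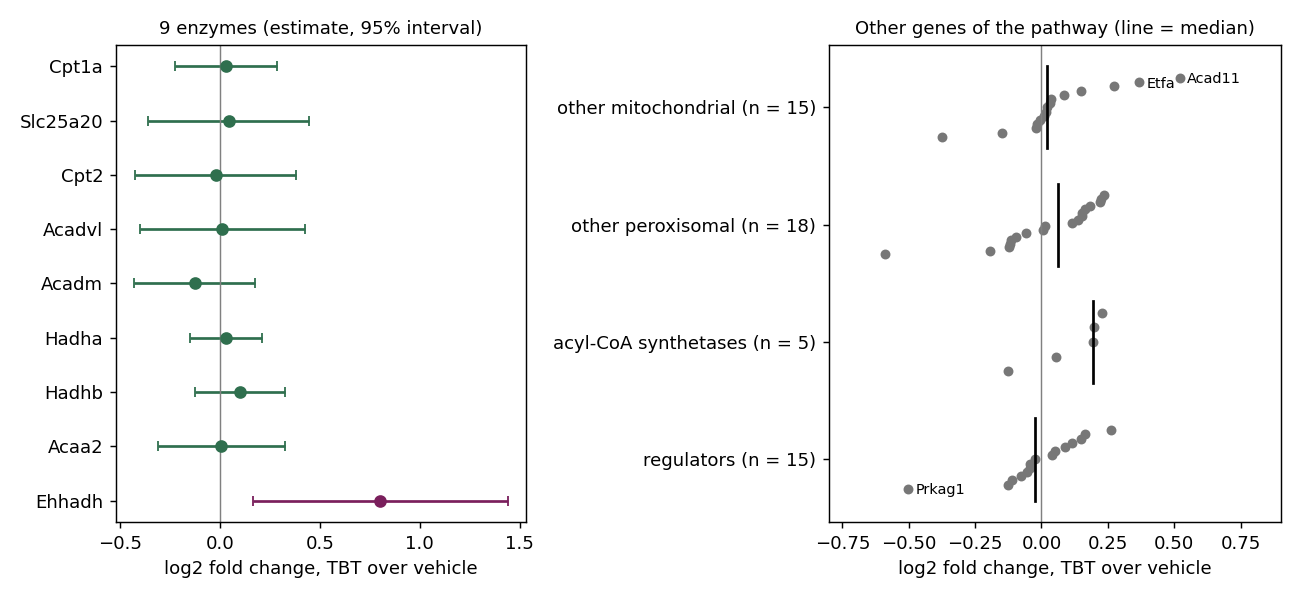
Log2 fold changes, TBT over vehicle, with 95% intervals for the 9 enzymes on the left (Ehhadh in purple), and single estimates for 53 other tested genes of the pathway in 4 lists on the right, with genes at an unadjusted p under 0.05 named and list medians as black lines. The Ehhadh interval starts at 0.17, the 8 mitochondrial intervals include 0, and no gene shown passed the adjusted test.

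Ehhadh (ENSMUSG00000022853) lies at chr16:21761287-21787807 on the minus strand in GRCm38. Its promoter window is printed as that of the member with the largest difference (GRCm38.p6, chr16:21787785-21788084, minus strand), with capitals marking the same matches, here 2 GC boxes and 1 CCAAT box read on the other strand.
Ehhadh: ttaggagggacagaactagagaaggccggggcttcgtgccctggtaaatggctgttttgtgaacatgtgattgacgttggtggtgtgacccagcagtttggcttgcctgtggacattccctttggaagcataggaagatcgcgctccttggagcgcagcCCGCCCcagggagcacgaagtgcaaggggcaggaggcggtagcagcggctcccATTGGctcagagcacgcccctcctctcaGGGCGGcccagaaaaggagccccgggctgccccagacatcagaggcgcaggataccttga

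RefSeq promoter windows were matched for 8 of the 9 members. Matches to AGGTCA on either strand were in 3 of the 8 windows (Cpt1a, Acadvl and Acadm), against 16.3% of all 32817 windows of the same length. The longer AAGGTCA, which contains AGGTCA and is the core element of the estrogen-related receptors, was in 1 window (Acadm), against 4.72% of all. The PPAR response element, searched as a pair of AGGTCA elements in the same orientation 1 base apart, was in 0 of the 8 windows and 0.0396% of all. GC boxes were in 6 of 8 windows, against 35.6% of all. The Hadha and Hadhb windows are 2 of the 6 and share 1 GC box. GC content was 50.7% to 62.3% in the 8 windows, against a median of 52.7% over all windows, and its part in these shares was not tested. CCGGAAG was in 2 windows (Slc25a20 and Cpt2), against 8.86% of all, and CCAAT in 2 (Cpt1a and Ehhadh), against 37.4%. The TATA box, searched as TATAAA, was in 0 of 8, against 13.6%. These are matches of letters in a short window and no statement on binding.

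Per kb of exon, Cpt1a was highest at 8.16 ± 1.26 CPM per kb over all animals (SD, n = 15). It stood above the next gene, Acaa2 (4.59 ± 0.876), in 15 of 15 animals. Acaa2, Acadm (4.22 ± 0.836), Hadhb (3.83 ± 0.527) and Hadha (3.73 ± 0.348) followed, and neighbours in this run changed places between animals, with Acaa2 above Acadm in 10, Acadm above Hadhb in 7 and Hadhb above Hadha in 11 of 15. Hadha stood above Cpt2 (2.21 ± 0.559) in 15 of 15 animals. Cpt2, Slc25a20 (1.64 ± 0.456) and Acadvl (1.52 ± 0.391) formed the next run, with Cpt2 above Slc25a20 in 13 and Slc25a20 above Acadvl in 5 animals. Ehhadh was lowest, at 0.738 ± 0.266 CPM per kb in 8 TBT animals, against 0.420 ± 0.201 in 7 vehicle animals (± SD), and below Acadvl in 15 of 15 animals. The mitochondrial sum was 25.4 to 74.7 times the Ehhadh level in TBT (median 44.8) and 38.3 to 266 times in vehicle (median 70.7), where the highest ratio is that of vehicle 7 with 2 Ehhadh counts. Exon lengths are merged GENCODE exons of all annotated transcripts, from 1516 bases in Acaa2 to 8730 in Hadha. The order and the ratios between genes therefore also depend on how many exons are annotated. Whether reads were counted over exons or over whole gene spans is not given in the sources used here, and the order assumes exons. Per kb of gene span, Cpt1a was still first and Ehhadh last, but Acadvl moved to place 4 and Acaa2 to place 8 of the 9.

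**Figure D4:**
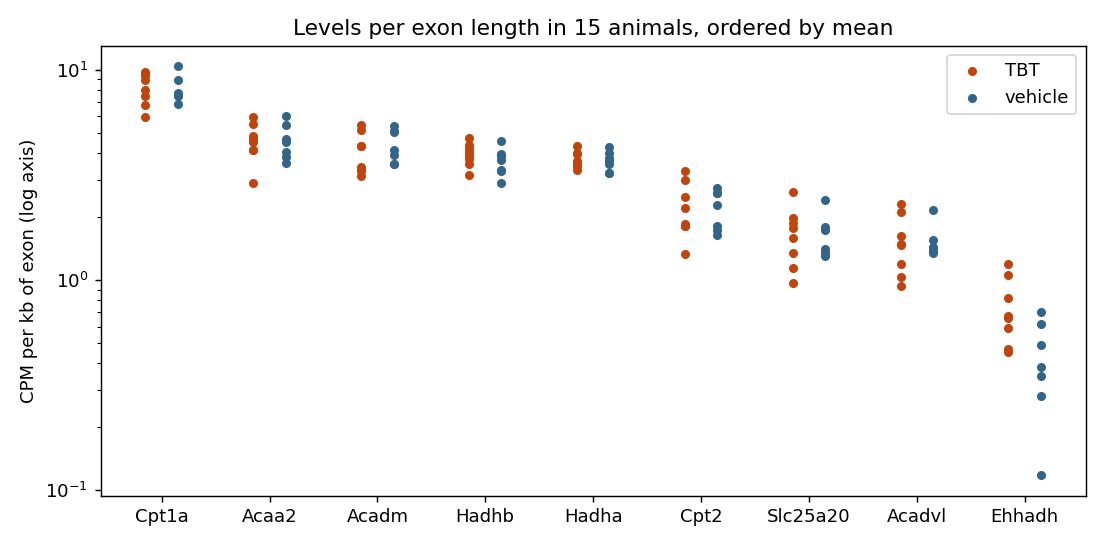
CPM per kb of merged exon (log axis) of the 9 transcripts in the 15 animals, TBT points left of vehicle points for each gene, ordered by mean. Cpt1a is highest and Ehhadh lowest, the vehicle point at the bottom is vehicle 7, and the genes between them form 2 runs whose members overlap.

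The members differed in how much they varied between animals. The SD of log2 CPM within groups was 0.14 for Hadha, at percentile 6.66 among genes of similar abundance. For the other mitochondrial members it was 0.20 to 0.40, at percentiles 26.8 to 62.1. For Ehhadh it was 0.58, beside a median of 0.59 among genes of similar abundance. Of the 36 pairs of members, 20 had a positive and 16 a negative Pearson's r over the 15 animals (range -0.49 to 0.58), and 0 passed the adjustment. The highest r was that of Slc25a20 and Acaa2 (r = 0.58, permutation p = 0.0246, adjusted 0.403, Spearman's rho 0.44, permutation p = 0.107, adjusted 0.384). It was 0.19 without the 2 animals farthest from the median of Slc25a20, which also narrows the range of values. Within the groups r was 0.83 in TBT and 0.09 in vehicle.

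On the TMM scale the platelet marker level moved with 2 members in opposite directions, and 1 of the 2 relations changed sign on total counts. Against the summed level of 10 platelet markers, Cpt1a had r = -0.75 (permutation p = 0.00121, adjusted 0.0479 over 72 relations of members with marker lists, Spearman's rho -0.74, permutation p = 0.00216, adjusted 0.0643). Acadm had r = 0.75 (permutation p = 0.00133, adjusted 0.0479, Spearman's rho 0.78, permutation p = 0.00092, adjusted 0.0643). These were the only 2 of the 72 relations past 0.05 by Pearson's r, and by Spearman's rho 0 passed. TBT 2 and TBT 8 lay far above the other animals on the TMM scale, and without TBT 2, TBT 8 and vehicle 6 neither relation passed, with r of -0.52 (adjusted p = 0.611, permutation) for Cpt1a and 0.59 (adjusted p = 0.497, permutation) for Acadm over 12 animals. Without the 2 animals farthest from the platelet median r was -0.56 for Cpt1a and 0.65 for Acadm. Within the groups r of Cpt1a was -0.93 in TBT and -0.29 in vehicle, and r of Acadm was 0.91 in TBT and 0.34 in vehicle. On CPM of total counts r with the platelet sum was -0.56 for Cpt1a (permutation p = 0.0319, adjusted 0.045) and -0.23 for Acadm (permutation p = 0.415, adjusted 0.427), and 53 of the 72 relations passed on that scale. All 10 platelet markers were read, none was at 0 throughout, 7 with a positive and 3 with a negative log2 fold change. Their sum ran from 2537 to 15370 CPM in TBT (median 3454) and from 2722 to 7370 CPM in vehicle (median 6856). The median was thus lower in TBT. It was also lower on total counts, at 4572 CPM in TBT and 5839 CPM in vehicle.

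As Ehhadh is abundant in liver, the hepatocyte markers stand beside its values. All 10 markers (Alb, Apoa1, Apoa2, Apoc3, Ttr, Serpina1c, Fgb, Fabp1, Cyp2e1 and Cps1) had counts in some library, and of the 7 that were tested 0 had a positive and 7 a negative log2 fold change. The intervals were wide, for Alb -3.77 to 2.23 around a log2 fold change of -0.77. The sum of the 10 markers ran from 1.77 to 576 CPM in TBT (median 14.5) and from 3.58 to 895 CPM in vehicle (median 71.5). TBT 1 had the highest sum of its group and the highest Ehhadh. Vehicle 4, with the highest sum of all, had 1.85 CPM of Ehhadh, and vehicle 7, with a sum of 383 CPM, had the lowest Ehhadh of all animals. TBT 5, TBT 6 and TBT 7 had sums of at most 4.82 CPM and 3.13, 2.45 and 1.96 CPM of Ehhadh. Pearson's r of Ehhadh with the hepatocyte sum was -0.21 (permutation p = 0.473, adjusted 0.682) and Spearman's rho -0.16 (permutation p = 0.567, adjusted 0.817). Without the 2 animals farthest from the median of the hepatocyte sum r was -0.58. On CPM of total counts r of Ehhadh with the hepatocyte sum was -0.36 (permutation p = 0.187, adjusted 0.201). The part of liver RNA in the Ehhadh values was not tested. The member with the highest r with the hepatocyte sum was Acadm, at 0.73 (permutation p = 0.00294, adjusted 0.0706, Spearman's rho 0.73, permutation p = 0.00268, adjusted 0.0643). For Acadm r was 0.75 without the 2 farthest animals, 0.70 without TBT 2, TBT 8 and vehicle 6 (adjusted p = 0.383, permutation), 0.71 within TBT and 0.74 within vehicle, and -0.15 on CPM of total counts (permutation p = 0.6). Of the 8 marker lists, NK cell markers had the highest r with Ehhadh, 0.58 (permutation p = 0.0243, adjusted 0.195, Spearman's rho 0.47, permutation p = 0.0828, adjusted 0.345). It was 0.54 without the 2 animals farthest from the NK median. Without TBT 2, TBT 8 and vehicle 6 it was 0.57 (adjusted p = 0.497, permutation, Spearman's rho 0.23). On CPM of total counts r of Ehhadh with the NK cell sum was 0.79 (permutation p = 0.00043, adjusted 0.00115). On that scale 53 of the 72 relations passed. For Ehhadh those with T cell (r = 0.72), B cell (0.665), neutrophil (0.57) and erythroid markers (-0.59) passed as well by Pearson's r. By Spearman's rho the NK, T and B cell relations passed. Those with neutrophil (rho 0.53, permutation, adjusted p = 0.0598) and erythroid markers (rho -0.55, permutation, adjusted p = 0.0505) did not. The sum of the 10 NK cell markers ran from 84.7 to 153 CPM in TBT (median 114) and from 67.3 to 158 CPM in vehicle (median 105), none was at 0 throughout, 7 had a positive log2 fold change, and their part in the Ehhadh difference was not tested.

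No other gene of the pathway passed in edgeR, DESeq2 or limma. The rest of the mitochondrial pathway gave 0 calls among 15 tested genes of 17 listed, with a median log2 fold change of 0.02. Etfa, the alpha subunit of the flavoprotein that takes electrons from the acyl-CoA dehydrogenases, ran from 10.1 to 14.5 CPM in TBT (median 12.1) and from 7.06 to 10.5 CPM in vehicle (median 9.85). All 8 TBT animals lay above the vehicle median of Etfa and 7 above every vehicle animal, with a log2 fold change of 0.37 (SE 0.112, edgeR adjusted p = 0.676). Its partner Etfb stood at 0.27 (SE 0.312, edgeR adjusted p = 0.964). The downstream oxidoreductase gene Etfdh stood at 0.15 (SE 0.157, edgeR adjusted p = 0.962). Etfb and Etfdh were added after their values were seen, and each estimate was smaller than its SE. A joint rise with Etfa can therefore not be read from them. Acad11, a dehydrogenase acting on longer chains, was placed on the mitochondrial list with earlier results of these data known. Its location in the cell was not examined. It stood at 5.78 ± 2.27 CPM in 8 TBT animals, against 3.90 ± 0.636 CPM in 7 vehicle animals (± SD), a log2 fold change of 0.52 (edgeR adjusted p = 0.735). Decr1, the reductase for unsaturated chains, stood at -0.37. The dehydrogenase genes Acadl and Hadh stood at 0.09 and 0.03.

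Among the other peroxisomal genes, 0 of 18 tested of 20 listed passed, and the median log2 fold change was 0.06. Hsd17b4, which encodes the other bifunctional enzyme, acting on the steps that EHHADH also covers, stood at 11.5 ± 1.99 CPM in 8 TBT animals, against 11.5 ± 1.87 CPM in 7 vehicle animals (± SD). The 3 genes of this list with the smallest p were Pecr, an enoyl-CoA reductase (-0.59), Crot, a carnitine acyltransferase (0.18), and Acox3 (-0.12), with adjusted p of at least 0.872 in edgeR. At an unadjusted p under 0.05 there were 0 of the 18 tested genes of this list, against 6.33% of all tested genes.

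Of the acyl-CoA synthetases, which activate fatty acids before either pathway, 0 of 5 tested genes of 7 listed passed. Acsl4 stood at 30.1 ± 5.82 CPM in 8 TBT animals, against 26.1 ± 2.21 CPM in 7 vehicle animals (± SD), with a log2 fold change of 0.20, and Acsl3 at 0.19. Acsl1 ran from 132 to 956 CPM in TBT (median 321) and from 240 to 419 CPM in vehicle (median 387). Its log2 fold change was 0.23 over all libraries, -0.09 without TBT 2 and -0.32 without TBT 2, TBT 8 and vehicle 6.

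Among regulators, 0 of 15 tested genes of 17 listed passed, with a median log2 fold change of -0.02. Ppara, the gene of the receptor named above, was not tested because of low counts, with a median of 0.5 and at most 24 counts in TBT and a median of 4 and at most 9 counts in vehicle. The tributyltin receptor genes Pparg and Rxra stood at 0.04 and -0.04. Prkag1, a regulatory subunit of AMP-activated kinase, which releases the brake on CPT1, ran from 4.24 to 7.17 CPM in TBT and from 7.48 to 12.8 CPM in vehicle. These groups did not overlap, which was so for 0.112% of all tested genes, and the log2 fold change was -0.50 (SE 0.152, edgeR adjusted p = 0.676). The catalytic subunit gene Prkaa1 stood at 0.16 and Prkag2 at 0.26. Over the 4 lists, 3 of 53 tested genes (Etfa, Acad11 and Prkag1) had an unadjusted p under 0.05, or 5.66%, close to the 6.33% over all tested genes. The count was 0 with total counts only, 8 in limma, 4 with no filter, 6 without TBT 2, TBT 8 and vehicle 6, and 2 to 4 without any 1 animal.

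The genes with the most similar pattern over the 15 animals, by Pearson's r of log2 CPM, are given as a description, since they were picked from all tested genes for their r. For Ehhadh they were Edem3 (0.89), Pank3 (0.88) and Slc16a4 (0.87). For Cpt1a they were Stx6 (0.91), Zfp729b (0.90) and Bri3bp (0.90), and for Acadm Fez2 (0.90), Cxcl5 (0.89) and Xkr6 (0.89). For Acadvl they were Spn (0.87), Nfkbiz (0.85) and Tmc6 (0.85), for Slc25a20 Dnajc17 (0.87), Tmem121b (0.80) and Cyba (0.79), and for Cpt2 Pkig (0.81), Cdc42se2 (0.80) and Scmh1 (0.80). The trifunctional subunits had no name in common, with Rad9b (0.80), Elp4 (0.80) and Gpr182 (0.79) for Hadha and Plk2 (0.84), Dirc2 (0.80) and Pheta2 (0.80) for Hadhb. For Acaa2 they were Luzp1 (0.82), Slc12a3 (0.81) and Ndufv1 (0.81).

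**Figure D5:**
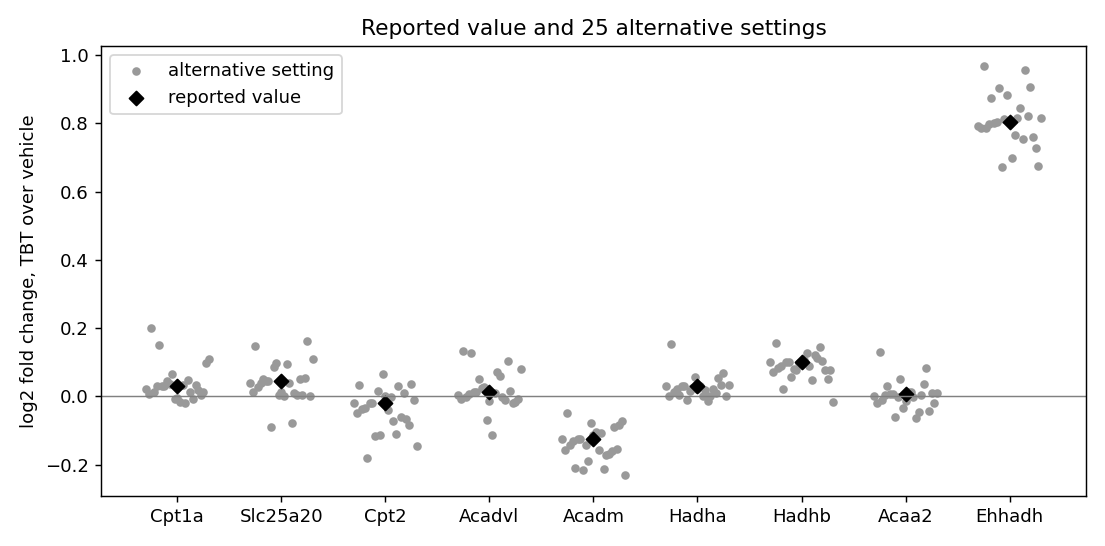
Log2 fold change, TBT over vehicle, of each of the 9 enzymes as reported (black diamonds) and under 25 alternative settings of scaling, filter, test and animals (grey points). The Ehhadh points stay between 0.67 and 0.97, and Cpt1a, Slc25a20, Cpt2, Acadvl, Hadha, Hadhb and Acaa2 have points on both sides of 0.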

How the data were processed

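Whole-blood total RNA of 15 mice was sequenced after preparation using a TruSeq Stranded Total RNA kit, per the labels' protocols. Trim Galore, HISAT2 (build mm10) and featureCounts made the table, per the submitters' processing notes, with versions, annotation and strandedness not given in the sources used here. Raw counts per gene were deposited by the authors, 1 column per animal, and used unchanged. Library totals were 6.03 M to 11.99 M, and pairs of libraries of a group differed by more than counting noise (chi-square per gene at least 11.3).

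Genes were kept by filterByExpr (minimum count 10), which left 13364 of 55536, all 9 members included. Groups were compared in R 4.3.3 with edgeR 4.0.16 (TMM, robust quasi-likelihood, no covariate, Benjamini-Hochberg over all tested genes at 0.05), checked on simulated data. SEs come from the F statistic. Log2 CPM for correlations has a prior count of 2, and their two-sided permutation p-values rest on 100000 resamples. Alternatives used DESeq2 1.42.0, limma 3.58.1, other scalings and filters, a replicate block and left-out animals. Coordinates and exon lengths are from GENCODE M21 (GRCm38, 55450 identifiers matched) and promoters from RefSeq (GRCm38.p6).

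The members, lists, named-gene rule and tests were chosen with earlier results of these data known. The rule named all members, of each other list the 3 genes with the smallest p, Hsd17b4, Acadl, Hadh, Ppara, Rxra and Pparg, and for each member the 3 genes most alike that average at least 1 CPM, leaving out predicted and unnamed gene models. Etfb, Etfdh, Cpt1b and Cpt1c were added after their values were seen. 1 further gene that the rule named is not reported here. Marker relations on total counts and levels per gene span were chosen after seeing the data.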

Additional observations from a re-analysis of the deposited data

Results flagged for a closer look

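In 26 genes (the 9 members and 17 named genes), each group was checked for a highest or lowest animal set apart from the rest by Dixon's gap ratio at the 95% level. Of 52 such groups 6 had one, where chance gives about 1 in 20. Among the members, Slc25a20 was at 11.6 CPM in vehicle 6 against at most 8.60 CPM in the other vehicle animals, and Acadvl was at 5.76 CPM in vehicle 3 against at most 4.15 CPM. Crot was at 25.7 CPM in TBT 1, with 19.3 CPM as the next highest in the TBT group, and Prkag2 was at 18.9 CPM in TBT 3, with 13.1 CPM as the next highest. Prkag1 was at 12.8 CPM in vehicle 7 and at most 8.71 CPM in the other vehicle animals, and Pparg was at 11.2 CPM in vehicle 3, the animal with the liver tumor label, and at most 5.81 CPM in the others.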

How the results depend on the processing

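No member and none of the 53 other pathway genes passed under any of 25 alternative settings. Ehhadh stayed positive throughout, at log2 fold changes of 0.67 to 0.97 (adjusted p 0.118 to 1), and Acadm negative, at -0.23 to -0.05. Without 1 animal Ehhadh was at 0.67 to 0.955, lowest without TBT 1 or vehicle 7. The count of all genes called was 0 in edgeR, 19 in DESeq2 (18 higher), 19 in limma (16 higher), 2 with no filter and 7 without TBT 2, TBT 8 and vehicle 6, and 0 without any 1 animal. Values of the other sign follow, and the cause was not tested. Upper-quartile scaling gave -0.008 for Acadvl, -0.019 for Acaa2 and -0.01 for Hsd17b4. Scaling without haemoglobin genes gave -0.003 for Acadvl, -0.01 for Acaa2 and -0.003 for Hsd17b4. Total counts only gave 0.033 for Cpt2, 0.029 for Acox3 and r = 0.895 for Hadha and Hadhb, with 33 of 36 pairs past and a median log2 fold change of all genes of 0.14. limma gave -0.14 for Acsl1. Without TBT 2, TBT 8 and vehicle 6, Hadhb was at -0.016, Acsl1 at -0.319 and Hadh at -0.005. Leaving out 1 animal at a time gave -0.018 to 0.098 for Cpt1a, -0.079 to 0.161 for Slc25a20, -0.114 to 0.065 for Cpt2, -0.112 to 0.103 for Acadvl, -0.013 to 0.069 for Hadha, -0.062 to 0.082 for Acaa2, -0.04 to 0.085 for Hsd17b4, -0.088 to 0.343 for Acsl1, -0.048 to 0.085 for Hadh, -0.147 to 0.308 for Pparg, -0.198 to 0.026 for Rxra, -0.29 to 0.25 for r of Hadha and Hadhb, and 0 to 1 for pairs of members past. Decr1 was at -0.195 without vehicle 7, Pecr at -0.335 without vehicle 4, Crot at 0.098 without TBT 1, Acsl3 at 0.098 without vehicle 5 and 0.342 without vehicle 2, Acsl4 at 0.129 without TBT 2, Prkag2 at 0.133 without TBT 3, Acadm at -0.071 without vehicle 7 and -0.212 without TBT 8, Hadhb at 0.048 without TBT 8, Acadl at 0.017 without TBT 8, and Acad11 at 0.256 in limma. On total counts r of Acadm was -0.227 with platelet and -0.149 with hepatocyte markers. Of 7 correlations of same-numbered animals over all tested genes, 2 were over 0.1, and 1 of 7 animals was best with its own number (number 3, r = 0.506). Large differences between libraries, such as those of TBT 2 and TBT 8, may hide a pairing. These values therefore do not show whether the replicate numbers pair the animals. With the replicate block (14 animals, without TBT 8) 0 genes were called, as without it, and values were -0.089 for Slc25a20, -0.01 for Hadha, -0.061 for Acaa2, -0.088 for Acsl1, -0.004 for Hsd17b4, -0.06 for Hadh and 0.905 for Ehhadh. Low counts of Ehhadh (2 to 41 per library) and of Ppara limit what can be read from them.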
